A study of Canis lupus familiaris with 28 samples.

Results

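The respiratory chain genes of the mitochondrion were followed in blood RNA of dogs with atopic dermatitis (AD dogs) and of healthy dogs. The members were all genes on the array whose symbol names a subunit or assembly factor of NADH dehydrogenase (NDUF), succinate dehydrogenase (SDHA to SDHD), the cytochrome bc1 complex (UQCR), cytochrome c oxidase (COX4 to COX8) or ATP synthase (ATP5). Of 34382 gene names on the array, 49 met this rule, and 47 of them had a probe above the limit on signal. The rule used names and brightness only, not the difference between AD and healthy dogs. COX5A and NDUFA4L2 were below the limit, and SDHD, NDUFAB1, UQCRC2, COX6C, ATP5O and ATP5G1 to ATP5G3 were not found by these symbols.

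The respiratory chain sits in the inner mitochondrial membrane. Complexes I and II take electrons from NADH and succinate, complex III passes them on to cytochrome c, complex IV gives them to oxygen, and complex V uses the proton gradient that results to make ATP. Most subunits are encoded in the nucleus and a few core subunits in mitochondrial DNA. In blood, white cells and platelets hold mitochondria, young red cells still carry them together with remaining RNA, and mature red cells of mammals have lost both. The members were grouped as core subunits of complex I, which carry its flavin and iron-sulfur centers (7 genes), accessory subunits of complex I (15), assembly factors of complex I (6), and complexes II (3), III (3), IV (8) and V (7). NDUFA4 and its relative NDUFA4L2 were counted with complex IV, where the NDUFA4 protein is now placed. COX7A2L, a factor that joins complexes III and IV, was counted there too. ATP5S and ATP5SL, which are not core subunits of ATP synthase, were kept with complex V by their symbols alone. The assembly factors of complex I are the genes named NDUFAF, and factors with other symbols were not counted among them.

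Values come from 20 AD dogs and 8 healthy dogs, client-owned animals of both sexes and several breeds, with 1 array for each dog. According to the paper, the healthy dogs were donors of a veterinary blood bank, and females were more frequent among the AD dogs. The part of donation and sex in the values was not tested. RNA was taken from whole blood according to the labels. On each array the RNA of the dog was labeled with Cy5, and a pool of RNA from 13 healthy dogs, the common reference, with Cy3. A log2 ratio is the processed signal of the dog over that of the common reference, centered on the median of the array, and a log2 fold change is the mean of AD dogs minus the mean of healthy dogs. The share of probes well above background for the dog's RNA was 84.3% to 90.3% on arrays of healthy dogs and 51.7% to 87.5% on those of AD dogs. The 28 arrays came from 8 slides and 5 scan days, and no slide or scan day held dogs of both groups, so that slide and disease cannot be told apart. The 6 arrays of scan day 5, all of AD dogs, had the lowest median signal of the dog's RNA (67.4 to 91.3, against 118 to 227 on the other arrays). The share well above background did not go over 63.2% on them, and it was 60.2% for AD dog 14 of scan day 4. Of the 47 members, 46 were well above background on every array. The exception was NDUFA1, which was so on 14 of the 20 arrays of AD dogs, and no member was saturated. All 4 marker genes of white blood cells in general (PTPRC, CORO1A, LCP1 and LAPTM5) were measured, as were the 8 erythroid marker genes found on the array, so that the RNA held both white and red cell transcripts.

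The probes behind the main results are 60 bases long, and the first 30 bases of each are given to show which stretch of the transcript was read. UQCR10 and NDUFS3 are each shown with both of their probes, since a pattern seen with separate stretches of a transcript does not rest on 1 probe, and SDHA and NDUFS1 are shown as members that ran the other way.
UQCR10, brightest probe: gacagactctttgacttctgccacatttga
UQCR10, other probe: accagctgtttgcccagaaccagggcctca
NDUFS3, brightest probe: ttccggaaagactttccactgtctggctac
NDUFS3, other probe: aaggcagctaactggtatgtgagagagatc
ATP5S: gaaaaccttatccaaatctttaagacagca
NDUFA7: catccgggcacgatttgcaggcgaagttgc
SDHA: aagaacatctgaactacgactcaacatgca
NDUFS1: ctacatgacagactccattagcagagcctc
On the canFam3 build, as printed in the files, the UQCR10 probes lie on the plus strand at chr26:22955496-22955555 and chr26:22955397-22955456, without overlap. The NDUFS3 probes lie on the minus strand of chromosome 18, at 42069627 to 42070903 and at 42070955 to 42071149. Each of them is spread over more than its own 60 bases of genome (1277 and 195 bases), so that it joins parts of separate exons. The probe of NDUFA7 (minus strand, chr20:52897591-52901862), that of NDUFS1 (minus strand, chr37:14683208-14685279) and that of SDHA (minus strand, chr34:11940378-11946163) also cross introns. The ATP5S probe covers chr8:26770855-26770914 on the plus strand in 1 block. Exon and UTR annotation of this build was not used here.

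No respiratory chain gene differed between AD and healthy dogs after adjustment. With limma, 0 of the 47 members passed an adjusted p of 0.085, as did 0% of all 30202 probes tested, and the smallest adjusted p of a member was 0.708. Before adjustment, 2 members had a p under 0.05, UQCR10 and NDUFA5, both higher in AD dogs. This is 2 of 47, where 6.12% of all probes met the criterion, 1.65% higher and 4.46% lower in AD dogs. Of the members 0 were lower by this criterion. The log2 fold change was above 0 for 29 of the 47 members (61.7%) and for 47.9% of all probes. Its median was 0.05 over the members and -0.01 over all probes, and the member values ran from -0.34 to 0.62.

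**Figure D1:**
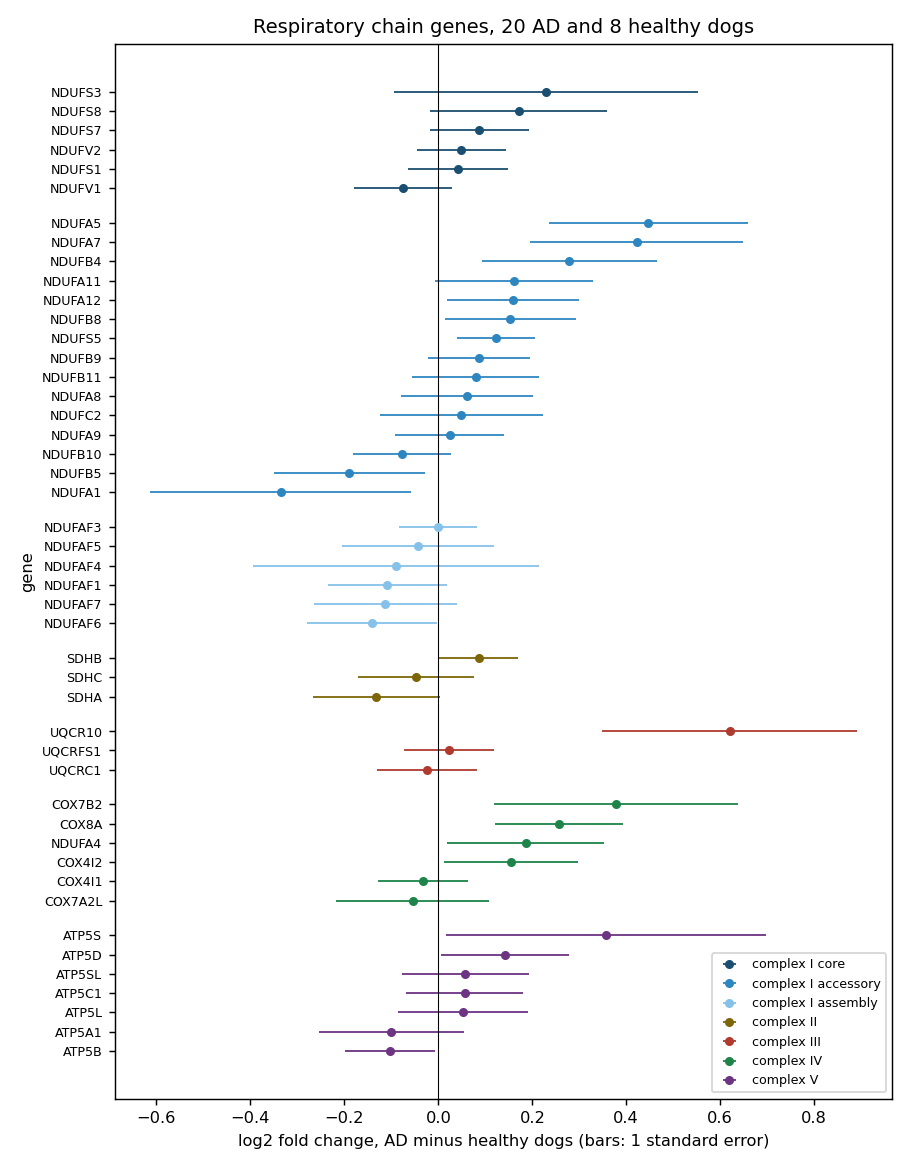
Log2 fold change (AD minus healthy dogs, horizontal axis) of 46 of the 47 measured respiratory chain genes, in groups by complex, with bars of 1 standard error. UQCR10 is highest at 0.62 and NDUFA1 lowest at -0.34, and the 6 NDUFAF assembly factors of complex I all lie at or below 0.

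UQCR10, a small subunit of complex III, had the highest log2 fold change. Its log2 ratio had a lowest value of -1.09, a median of -0.32 and a highest value of 1.33 in healthy dogs, and -0.77, 0.51 and 1.87 in AD dogs. The groups overlapped over most of their range, with 16 of 20 AD dogs above the mean of healthy dogs and 2 above the highest healthy dog. AD dogs had a mean of 0.49 ± 0.66 (SD, n = 20) and healthy dogs one of -0.13 ± 0.76 (SD, n = 8), which gave a log2 fold change of 0.62 with a standard error of 0.27. The unadjusted p from limma was 0.0292 and the adjusted p 0.708. The other UQCR10 probe gave 0.56, and its log2 ratios followed those of the first across the 28 dogs (r = 0.990). With slide as a random block the unadjusted p was 0.0563. UQCRC1, a core protein of complex III, and UQCRFS1, its Rieske iron-sulfur protein, had log2 fold changes of -0.02 and 0.02, each with a sign that turned under other processing.

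NDUFA5 and NDUFA7, accessory subunits of complex I, came next. The log2 ratio of NDUFA5 ran from -0.90 to 1.03 among healthy dogs, with a median of -0.32, and from -0.58 to 1.24 among AD dogs, with a median of 0.29. In healthy dogs 1 dog, number 1, stood at the upper end, and 15 of 20 AD dogs were above the mean of healthy dogs. The log2 fold change of NDUFA5 came to 0.45 with a standard error of 0.21. By limma its unadjusted p was 0.0437 and its adjusted p 0.796, and the unadjusted p was 0.0689 with slide as a random block. NDUFA7 ran from -0.53 to 1.16 among healthy dogs, with a median of 0.04, and from -0.66 to 1.35 among AD dogs, with a median of 0.63. The ranges nearly coincided, with 13 of 20 AD dogs above the mean of healthy dogs and 2 above the highest of them. NDUFA7 had a log2 fold change of 0.42 with a standard error of 0.23 and an adjusted p of 0.850. It was the 1 member that passed in any alternative, at 0.58 with an adjusted p of 0.0812 when arrays were weighted by their quality, a fit that called 2.81% of all probes.

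**Figure D2:**
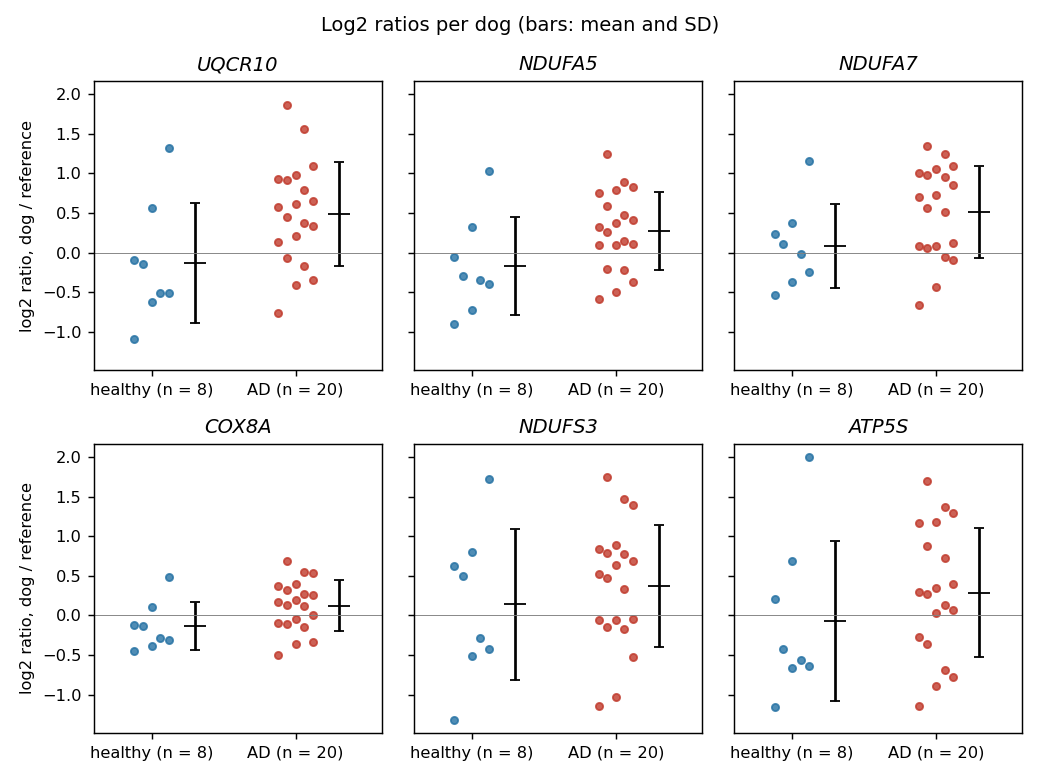
Log2 ratio of dog to common reference (vertical axis) for each of 8 healthy and 20 AD dogs, with the mean and SD as bars, for 6 members. The groups overlap in every panel, and NDUFS3 and ATP5S range over more than 2 log2 units within each group.

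Of the 15 accessory subunits of complex I, 12 had a log2 fold change above 0, with a median of 0.09 and 1 at an unadjusted p under 0.05. NDUFB4 (0.28), NDUFA12 (0.16) and NDUFS5 (0.12) were among the 10 members with the smallest p. NDUFS5 varied little, with log2 ratios of -0.34 to 0.03 among healthy dogs and -0.33 to 0.27 among AD dogs, and 18 of 20 AD dogs were above the mean of healthy dogs. NDUFB5 had a log2 fold change of -0.19 and NDUFA9 one of 0.02. NDUFA1, a small subunit needed for the membrane arm, had the lowest value of all members, -0.34. Its log2 ratio was -0.13 to -2.06 in the 6 AD dogs of scan day 5 and -0.42 to 0.71 in the other 14, and without scan day 5 its log2 fold change was 0.08.

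Among the 7 core subunits of complex I, the median log2 fold change was 0.05, with 5 above 0. NDUFS1, which carries iron-sulfur centers of the electron input arm, was at 0.04, and NDUFV1, which binds the flavin and NADH, was at -0.08. NDUFS3 was at 0.23 with a standard error of 0.32, the highest of the 7. The 6 assembly factors, proteins that help build complex I and are not part of it, had log2 fold changes of -0.14 (NDUFAF6) to -0.0009 (NDUFAF3), all below 0, with a median of -0.10 and none at an unadjusted p under 0.05. This common sign depended on the probe and the processing. The other NDUFAF4 probe gave 0.07, while further probes of the other factors were below 0. With the signal of the dog's RNA alone, NDUFAF1 (0.04), NDUFAF4 (0.20) and NDUFAF7 (0.06) turned above 0, and the others stayed below.

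The 3 measured subunits of complex II, which is also an enzyme of the TCA cycle, did not move together. SDHA, the flavoprotein, had a log2 ratio of -0.09 to 0.54 among healthy dogs, with a median of 0.15, and -0.82 to 0.62 among AD dogs, with a median of 0.08. The brightest probe gave a log2 fold change of -0.13 with a standard error of 0.14, and the other probe one of 0.03. SDHB, the iron-sulfur subunit, was at 0.09 (standard error 0.08). Its healthy dogs, at -0.39 to -0.09, had the smallest SD of all members (0.092), and 10 of 20 AD dogs were above the highest of them. The other SDHB probe gave 0.07, but the log2 ratios of the 2 probes did not follow each other across the 28 dogs (r = 0.098). SDHC, a membrane anchor, was at -0.05. The smallest adjusted p of complex II was 0.876.

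In complex IV, 4 of 6 measured members had a log2 fold change above 0 (median 0.17). COX8A, the ubiquitous form of subunit VIII, ran from -0.45 to 0.49 among healthy dogs, with a median of -0.21, and from -0.50 to 0.69 among AD dogs, with a median of 0.15, and 16 of 20 AD dogs were above the mean of healthy dogs. The log2 fold change of COX8A was 0.26 with a standard error of 0.14 and an adjusted p of 0.843. COX7B2, known as a testis form of subunit VIIb, was at 0.38 and COX4I2, the lung form of subunit IV, at 0.15, and both values turned to -0.25 and -0.28 with the signal of the dog's RNA alone. For these genes the common reference, which is the same RNA on every array, had itself log2 differences of -0.61 and -0.38 between arrays of AD and healthy dogs, and the part of this in the ratios was not tested. COX4I1, the common form of subunit IV, was at -0.03, NDUFA4 at 0.19 and COX7A2L at -0.05. In complex V, the catalytic subunits ATP5A1 and ATP5B were both at -0.10, and ATP5S, or factor B, was highest at 0.36 with a standard error of 0.34.

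**Figure D3:**
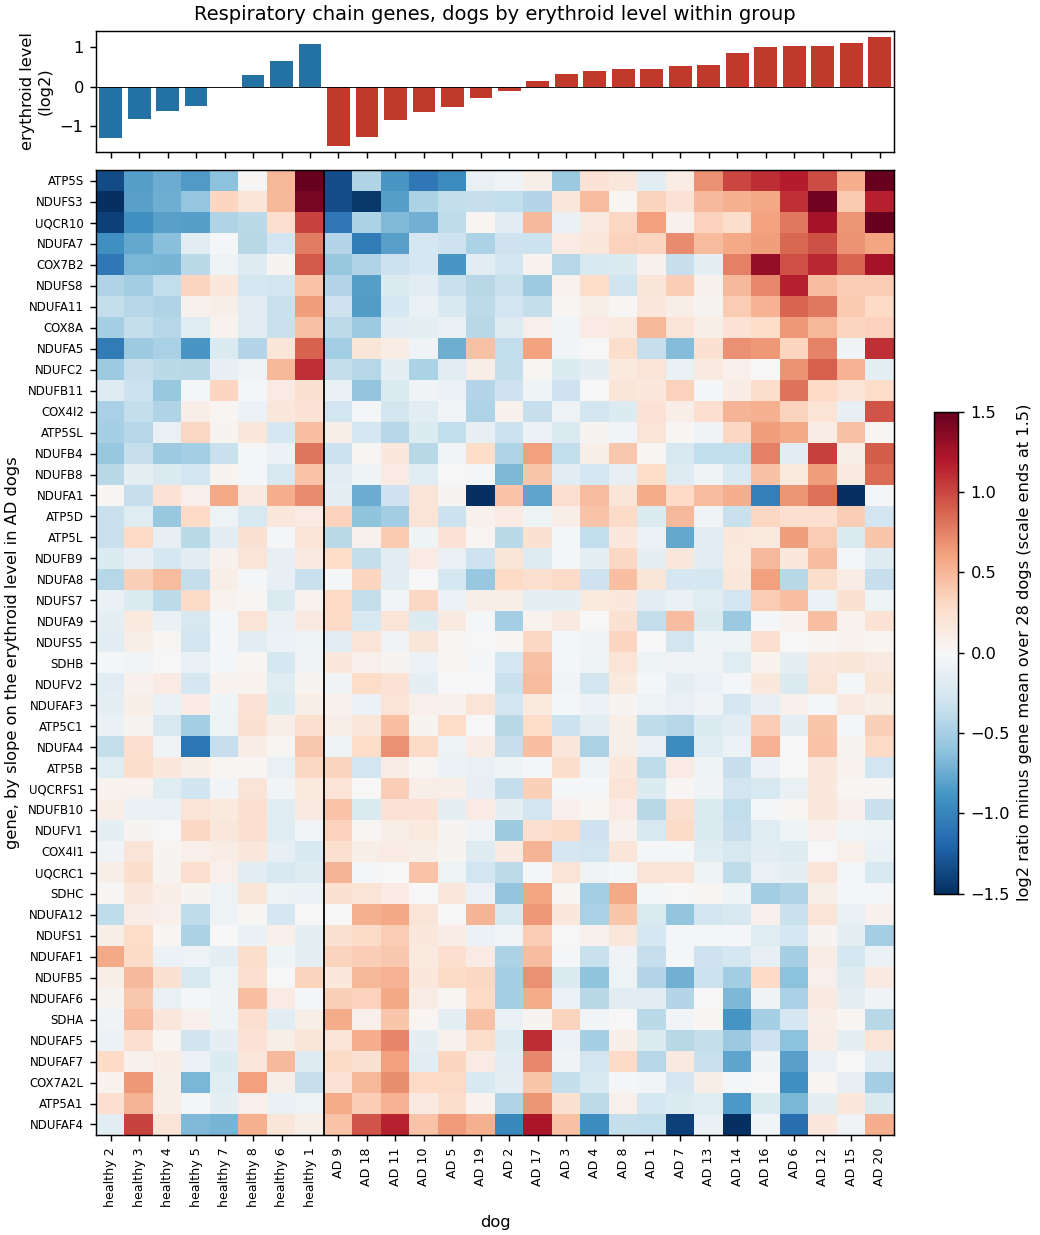
Log2 ratio of 46 of the 47 members minus its mean over the 28 dogs (color, scale ends at 1.5), with dogs ordered by erythroid level within healthy and AD dogs (bars on top, mean log2 ratio of 8 erythroid marker genes) and genes ordered by their slope on this level in AD dogs. The uppermost genes, led by ATP5S, NDUFS3 and UQCR10, go from low to high along the dogs of both groups.

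The members differed widely in how much they varied from dog to dog. The SD across healthy dogs had a median of 0.260 over the members, against 0.297 over all probes, and in AD dogs 0.337 against 0.433. ATP5S (SD 1.01 in healthy dogs), NDUFS3 (0.952) and UQCR10 (0.760) had the largest spread in healthy dogs. NDUFS3, a core subunit of the peripheral arm of complex I, ran from -1.32 to 1.72 among healthy dogs, with a median of 0.11, and from -1.14 to 1.75 among AD dogs, with a median of 0.50. ATP5S ran from -1.16 to 2.00 among healthy dogs, with a median of -0.50, and from -1.14 to 1.70 among AD dogs, with a median of 0.29. In each of these genes healthy dog 1 was the highest and healthy dog 2 the lowest of the healthy dogs.

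The 2 dogs at these ends were also the ends of the healthy group in erythroid transcripts. The erythroid level of a dog was taken as the mean log2 ratio of 8 marker genes, among them ALAS2, the first enzyme of heme synthesis in red cells, AHSP, which holds free alpha globin, the membrane proteins GYPC, SLC4A1 and EPB42, the transcription factor KLF1, and TFRC, the transferrin receptor. It ran from -1.29 (healthy dog 2) to 1.09 (healthy dog 1), with a median of -0.24, and among AD dogs from -1.51 to 1.26, with a median of 0.43. In bulk RNA, more red cell precursors and more RNA in each of them cannot be told apart. All 8 markers had a log2 fold change above 0, with ALAS2 at 0.63 (adjusted p 0.866), and limma called 0 of them.

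Within the 20 AD dogs, 12 of the 47 members rose with the erythroid level at an adjusted p of at most 0.05 (25.5%, where 15.5% of all probes rose), and 7 fell (14.9%, where 14.6% of all probes fell). The slopes were fitted with limma over all 30202 probes. The members that rose were ATP5S, NDUFS3, UQCR10, NDUFA7, COX7B2, NDUFS8, NDUFA11, COX8A, NDUFC2, NDUFB11, COX4I2 and ATP5SL. The members that fell were ATP5A1, COX7A2L, NDUFAF1, NDUFAF6, NDUFAF7, NDUFS1 and SDHA. By group, 4 of 15 accessory subunits and 2 of 7 core subunits of complex I rose, as did 3 of 6 members of complex IV, 2 of 7 of complex V and 1 of 3 of complex III. The 2 counted with complex V were ATP5S and ATP5SL, which are not core subunits of ATP synthase, and its catalytic subunit ATP5A1 fell. Of the 6 assembly factors named NDUFAF 3 fell and 0 rose, and of complex II 1 of 3 fell and 0 rose.

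NDUFS3 rose by 0.89 ± 0.082 (standard error, n = 20) on the log2 scale for each log2 unit of erythroid level, with an adjusted p of 2e-08 by limma. Its other probe gave 0.99. The slope was 0.90 for ATP5S, 0.73 for UQCR10, 0.65 for NDUFA7 and for COX7B2, 0.49 for NDUFS8 and 0.35 for COX8A. NDUFS1 fell by 0.20 for each log2 unit (adjusted p 0.0187) and SDHA fell by 0.26 (adjusted p 0.0240), while the other SDHA probe had a slope of -0.03. NDUFS5, the least variable accessory subunit in AD dogs, had a slope of 0.01, and the median slope was -0.01 over all members and -0.04 over all probes.

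The slopes were then taken in the 8 healthy dogs on their own. There 6 members rose at an adjusted p of at most 0.05 (12.8%, where 2.72% of all probes rose), and 0 fell, where 0.884% of all probes fell. They were ATP5S (1.18), NDUFS3 (1.17), UQCR10 (0.91), COX7B2 (0.72), NDUFA5 (0.69) and NDUFC2 (0.65). Of the 12 members that rose in AD dogs 5 were among these 6, and all 12 had a slope above 0 in healthy dogs. Of the 7 that fell in AD dogs, 6 had a slope below 0 in healthy dogs. NDUFA5 had a slope of 0.30 among AD dogs (adjusted p 0.0602). No member had a slope that differed between AD and healthy dogs after adjustment (smallest adjusted p 0.892 by limma, with 0 of all probes at 0.05 or less).

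**Figure D4:**
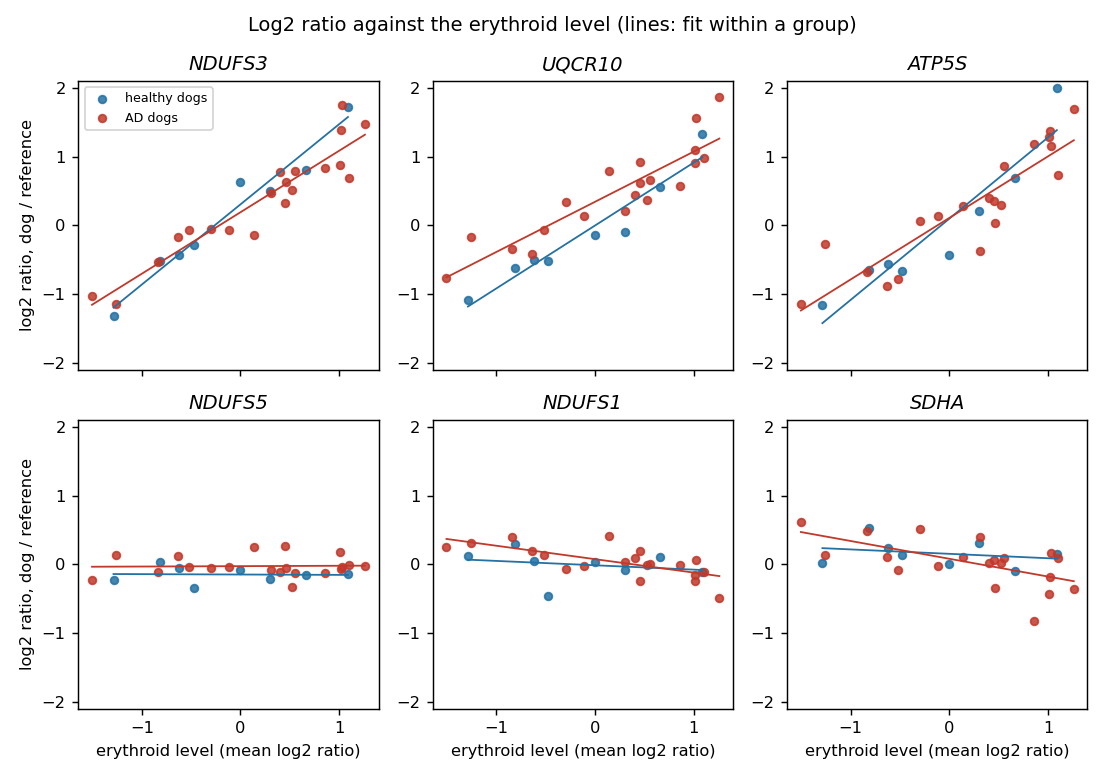
Log2 ratio of dog to common reference (vertical axis) against the erythroid level (horizontal axis, mean log2 ratio of 8 marker genes) for 6 members in 8 healthy and 20 AD dogs, with the fit within each group as a line. NDUFS3, UQCR10 and ATP5S climb in both groups, NDUFS5 is flat, and NDUFS1 and SDHA go down in AD dogs.

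Since slides are batches, the slopes were also taken within each of the 7 slides that held at least 3 dogs. Over all members 189 of 329 such slopes (57.4%) were above 0, and over all probes 46.5% to 56.1% on each slide. Of these slides 5 held the AD dogs in which the members that rose or fell were chosen, so that their signs there were largely set by that choice. On the 2 slides of healthy dogs, all 12 members that rose in AD dogs had a slope above 0 on slide 2, where 47.3% of all probes did, and 7 of 12 on slide 3, where 49.7% did. Over the 7 slides this held for 77 of the 84 slopes of the 12 members, and 5 members (NDUFS3, UQCR10, COX7B2, NDUFC2 and NDUFB11) had a slope above 0 on every slide. Slide 3 held healthy dogs 5 to 8. Slide 2 held healthy dogs 1 to 4, with erythroid levels of 1.09, -1.29, -0.81 and -0.62 in this order. Its slopes thus rested largely on healthy dog 1. NDUFS3 had within-slide slopes of 0.86 to 1.37. For the 7 members that fell, 41 of 49 slopes were below 0, with 7 of 7 on slide 2 and 2 of 7 on slide 3, and SDHA was below 0 on every slide. The count that rose was 10 to 12 when each slide of AD dogs was left out in turn, and 11 without the 2 AD dogs whose erythroid level was farthest from the median. The count that fell rested on few dogs: it was 0 without slide 5, 3 without slide 4 or slide 8, and 1 without those 2 dogs.

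**Figure D5:**
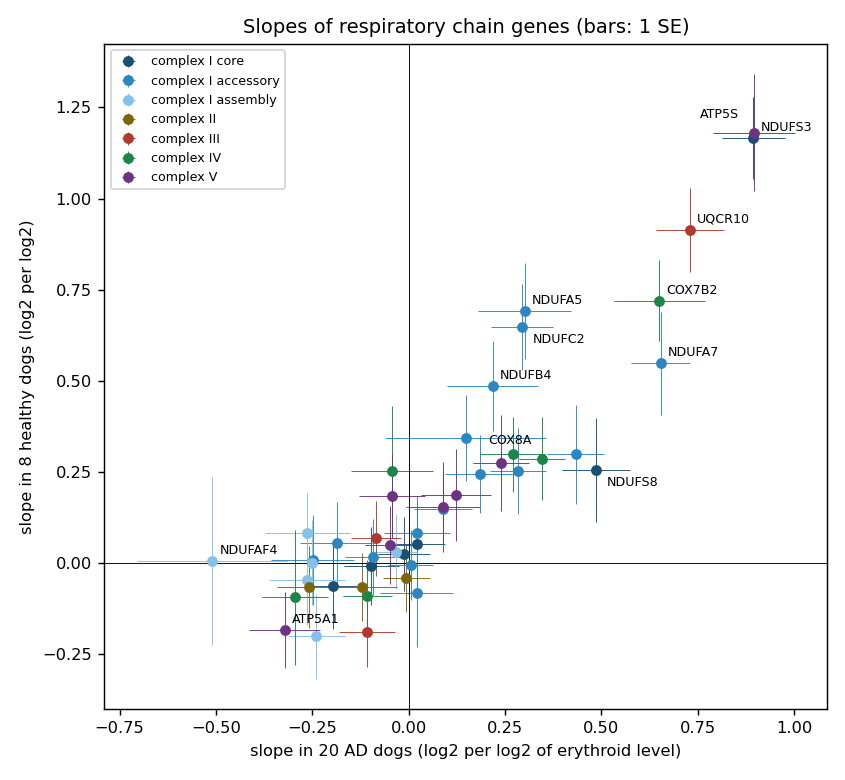
Slope on the erythroid level in 8 healthy dogs (vertical axis) against that in 20 AD dogs (horizontal axis), both in log2 units per log2 unit with bars of 1 standard error, for 46 of the 47 members in colors by group. ATP5S, NDUFS3 and UQCR10 stand at the upper right in both groups of dogs, and the NDUFAF assembly factors of complex I lie at or below 0 in AD dogs.

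With the erythroid level as a covariate over all 28 dogs, the log2 fold change of UQCR10 was 0.36 in place of 0.62, with an unadjusted p of 0.00809 and an adjusted p of 0.642, and that of NDUFA5 was 0.31 (unadjusted p 0.0877). The values of NDUFA7, COX8A and ATP5S went from 0.42 to 0.21, from 0.26 to 0.14 and from 0.36 to 0.03, and that of NDUFS3 turned from 0.23 to -0.10. This fit called 0 members. The level comes from the same arrays as the members, so that faults of an array enter both.

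Levels of other blood cells were examined in the same way. With the T cell level, 1 member rose in AD dogs, the assembly factor NDUFAF4, where 5.25% of all probes rose. At an unadjusted p under 0.05 in either direction 10 members moved with the T cell level among AD dogs (24.3% of all probes did), and 1 among healthy dogs (6.78%). With the levels of platelets, B cells, neutrophils and monocytes 0 members rose or fell in either group. Over all probes at most 0.295% rose and 0.119% fell with these levels in AD dogs, and 0% did in healthy dogs. So few calls over all probes leave these zeros uninformative about the members. By the unadjusted criterion, 2 members moved with the platelet level in AD dogs (11.5% of all probes did) and 13 in healthy dogs (20.6%), as many as with the erythroid level there. The monocyte level gave 5 among AD dogs (12.4%) and 6 among healthy dogs (10.9%). The B cell level gave 4 among AD dogs (16.8%) and 0 among healthy dogs (1.43%), and the neutrophil level 8 (18.4%) and 0 (4.24%). With the level of the 4 general white cell markers, COX7B2, NDUFA7 and NDUFS3 fell in healthy dogs, where 2.74% of all probes fell. In AD dogs 0 members rose or fell with it, as did 0% of all probes. By the unadjusted criterion 15 members moved with it among healthy dogs (24.7% of all probes did), and 10 among AD dogs (14.2%).

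The respiratory chain genes of mitochondrial DNA were set beside the nuclear members. All 12 that were found by name had probes above the limit on signal, placed on the mitochondrial genome by the files. Their median log2 fold change was -0.22, and 10 of the 12 were below 0, where 47.9% of all probes were above 0. At an unadjusted p under 0.05, 3 were lower in AD dogs, where 4.46% of all probes were. None of the 12 had an adjusted p of at most 0.085. COX3, a core subunit of complex IV, ran from -0.49 to 0.69 among healthy dogs, with a median of 0.27, and from -1.49 to 0.65 among AD dogs, with a median of -0.45, which gave a log2 fold change of -0.58 with a standard error of 0.20. By limma its unadjusted p was 0.00758 and its adjusted p 0.502. ND4 was at -0.52 and ND2 at -0.45, both core subunits of complex I. The COX3 value was -0.67 to -0.48 with each slide left out in turn and -0.45 with the signal of the dog's RNA alone. With that signal ND1 (0.23) and COX1 (0.16) turned above 0, and the others of the 10 stayed below. With the erythroid level, 2 of the 12 fell in AD dogs, where 14.6% of all probes fell, and 0 rose.

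Other mitochondrial gene lists were counted in the same fits. Of 29 measured assembly and electron carrier genes outside the naming rule, 0 had an unadjusted p under 0.05, and COX17, a copper carrier of complex IV, had the smallest p, with a log2 fold change of 0.39. Of these 29, 3 rose with the erythroid level in AD dogs and 11 fell, where 15.5% of all probes rose and 14.6% fell. These shares hold for the lists that follow too. The 3 that rose, named after their values were seen, were FOXRED1 (slope 1.15) and ACAD9 (0.58), both factors in the assembly of complex I, and CYC1 (0.60), the cytochrome c1 subunit of complex III. Of 61 mitochondrial ribosomal proteins, 4 were higher at an unadjusted p under 0.05, where 1.65% of all probes were. The 4, named after their values were seen, were MRPS21 (log2 fold change 0.45), MRPL44 (0.26), MRPL11 (0.24) and MRPL22 (0.26). The 1 that was lower, where 4.46% of all probes were, was MRPS11 (-0.33). After adjustment 0 of the 61 passed. With the erythroid level 4 of the 61 rose and 22 fell in AD dogs. Of 12 regulators of mitochondrial biogenesis, 0 had an unadjusted p under 0.05, ESRRA had the smallest p (log2 fold change 0.26), and 6 fell and 0 rose with the erythroid level. Of 18 genes of the TCA cycle and pyruvate dehydrogenase, 16 had a log2 fold change below 0, where 47.9% of all probes were above 0, and 1 had an unadjusted p under 0.05. This was CS, citrate synthase, with a log2 fold change of -0.34 and an adjusted p of 0.490. Its log2 fold change was -0.49 to -0.19 with each slide left out in turn and -0.13 with the signal of the dog's RNA alone. With that signal PDHA1 (0.32), IDH3G (0.17), FH (0.10) and some others of the 16 turned above 0. Of 16 glycolysis genes, 0 had an unadjusted p under 0.05, and PGAM1 had the smallest p (0.29 on the log2 scale). With the erythroid level 5 of the 18 and 2 of the 16 fell in AD dogs, and 0 rose.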

How the data were processed

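The authors extracted both channels with Agilent Feature Extraction 10.7.3.1, which subtracted background and normalized the dyes; the deposited processed signals are intensities on a linear scale. The table of processed values deposited by the authors holds log10 ratios of dog to common reference, which served as an alternative after conversion to log2. Control spots were left out (43803 spots, 43603 probes left), outlier spots were set to missing, and a log2 ratio was centered on each array's median. A probe was kept with a median signal over 100 in at least 1 channel and group (30202 probes), and the brightest probe stood for a gene. AD and healthy dogs were compared over all kept probes with lmFit and eBayes of limma 3.58.1 in R 4.3.3, with Benjamini-Hochberg adjustment and the study's threshold of 0.085. Slopes on a marker level were fitted within each group in the same way, at 0.05. The fits were tested on simulated data with independent probes and no effects of slide or array, which cannot show how such effects bear on the results. The number of arrays limits the precision. With 1 array for each dog, p-values measure the spread between arrays, in which differences of dog, array and slide are mixed.

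The members, the gene lists and the tests were chosen with earlier results of these data known. Members named were the 10 with the smallest unadjusted p, the highest and lowest of each complex, preset core subunits and tissue isoforms, the 3 with the largest SD in healthy dogs, and the gene with the smallest p of each other list; the slope fits were added after the data were seen. Members that rose or fell with the erythroid level were named after their values were seen. Of the 49 genes, 28 had 1 probe. For the 21 with several tested probes, all probes of 15 had the same sign, and probes differed by a median of 0.0776 and at most 0.178 (COX4I1). Promoters were not analysed here, and 1 member and 1 marker gene, which enter the counts, are not reported here by name.

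Lists beside those in the report were markers of platelets, T cells, B cells, neutrophils and monocytes, in which 0 genes had an unadjusted p under 0.05 between AD and healthy dogs. Their median log2 fold changes were -0.18 (4 genes), -0.06 (8), -0.01 (7), 0.18 (9) and -0.04 (6), and the genes with the smallest p were PPBP (-0.37), CD3E (0.28), PAX5 (-0.41), CXCR2 (0.27) and CD68 (0.54). For the general white cell markers the median was -0.14 and PTPRC was at -0.24.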

Additional observations from a re-analysis of the deposited data

Results flagged for a closer look

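NDUFB4, an accessory subunit of complex I, had a log2 ratio of 0.84 in healthy dog 1, and those of the other 7 dogs of this group were -0.53 to 0.02. The gap to the next dog was 0.599 of the range of the group, over the critical value of 0.526 for 8 samples. This was 1 of 34 values examined in this way, of which chance alone flags about 1 in 20.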

How the results depend on the processing

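Slide and scan day held 1 group each, so that they were entered only as random blocks, and the 7 arrays whose share of probes well above background was 63.2% or less (the 6 of scan day 5 and that of AD dog 14) were all of AD dogs. All 47 members also passed the stricter limit of all 4 median signals over 100.

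The count of all probes called was 0 in the main analysis and stayed 0 in all but 5 of 23 alternatives: it was 3 with no filter on signal, 1 with the dog's channel well above background on at least 8 arrays, 1 with dogs 1 to 8 of each group alone, 1051 with the dog's channel alone and 849 with array weights. The causes were not tested. The count of members called was 0 in all alternatives but array weights, where it was 1 (NDUFA7). The count of members with an unadjusted p under 0.05, 2 in the main analysis, was 1 with no filter on signal, 0 with slide as a random block, 1 with scan day as a random block, 7 with array weights and 1 with the erythroid level as a covariate, an alternative added after the data were seen. With each slide left out in turn it was 0 to 3, with 0 without slide 2, 3 or 7 and 1 without slide 6. The median log2 fold change of the members was -0.01 to 0.10 over all alternatives and 0.01 to 0.08 with each slide left out.

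Dogs 1 to 8 of each group share a number only. The deviations of same-numbered dogs from their group means correlated at -0.36 to 0.43, above 0.1 in 4 of 8 pairs. The fit with the dog number as a replicate block used these 16 dogs only, without AD dogs 9 to 20. It called 0 probes and 0 members, 6 members had an unadjusted p under 0.05, and the median log2 fold change of the members was -0.01. The same 16 dogs without the block, a fit added after the data were seen, also gave 6 members and -0.01. In both fits, with the replicate block and without it, the log2 fold change turned to 0.12 for NDUFA1, -0.046 for NDUFA12, -0.0026 for NDUFS1, -0.033 for UQCRFS1 and -0.080 for NDUFA4, so that these signs turned with the choice of dogs. The block changed no call of a member.

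All slope fits were chosen after the data were seen. The count of members that rose with the erythroid level in AD dogs was 10 to 13 in 13 alternatives. The dog's channel alone kept 10 of the 12 genes, normexp with loess kept 11 and slide as a random block kept 12. The count that fell, 7, was 4 with normexp and loess, 11 without TFRC and GYPC among the markers, 1 without the 2 dogs farthest from the median level, 11 with a threshold of 0.085, and 0 to 10 with each slide left out.

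Signs of log2 fold changes turned as follows, among them those of NDUFA1, COX7B2 and NDUFS3, which were -0.34, 0.38 and 0.23 in the main analysis. With no filter on signal, NDUFA9 was at -0.0085 and UQCRFS1 at -0.011. With normexp and loess, UQCRC1 was at 0.018, NDUFA9 at -0.014 and COX4I2 at -0.016. With the dog's channel alone, COX7B2 was at -0.25, SDHA at 0.10, COX7A2L at 0.26, ATP5B at 0.019 and COX4I2 at -0.28. With array weights, UQCRC1 was at 0.0555, NDUFS1 at -0.0070, NDUFA9 at -0.0096 and UQCRFS1 at -0.0022. Without scan day 5, NDUFA1 was at 0.0795 and UQCRC1 at 0.023. With the erythroid level as a covariate, UQCRC1 was at 0.020, COX7A2L at 0.028, NDUFS3 at -0.10 and COX4I1 at 0.0030. With the mean of all probes of a gene, NDUFS1 was at -0.025 and UQCRFS1 at -0.012. With each slide left out in turn, the ranges that crossed 0 were -0.079 to 0.017 for SDHC, -0.097 to 0.0060 for UQCRC1, -0.14 to 0.023 for COX7A2L, -0.043 to 0.50 for NDUFS3, -0.22 to 0.022 for ATP5A1, -0.0048 to 0.31 for COX4I2, -0.052 to 0.13 for NDUFS1, -0.16 to 0.0091 for NDUFV1, -0.029 to 0.062 for UQCRFS1, -0.068 to 0.0041 for COX4I1, -0.010 to 0.38 for NDUFA4 and -0.028 to 0.073 for NDUFA9. None of these values was past the threshold, and the causes were not tested. The other 574 values of the single members followed in this way, among them no assembly factor of complex I, kept their sign and their side of the threshold.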
